A study of Rattus norvegicus with 6 samples.

Results

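The NF-kappa-B subunits and inhibitors were followed in the spinal cord of rats with bone cancer pain (BCP). The 10 genes were the rows of the deposited gene table named Nfkb1, Nfkb2, Rela, Relb, Rel, Nfkbia, Nfkbie, Nfkbiz, Bcl3 and Ikbke, out of 30957 listed genes, and each name matched 1 row. RNA was sequenced from the ipsilateral side of the lumbar enlargement, with the meninges removed, of adult female Wistar rats on day 14, in 3 BCP and 3 sham libraries. BCP rats carried living Walker 256 cells, a rat breast carcinoma line, in the marrow cavity of the left tibia, whereas sham-operated rats had received heat-killed Walker 256 cells at the same site. The comparison therefore answers which of these genes differed in the cord when the tibia held living rather than dead tumor cells. Nothing states whether a library came from 1 rat or several, so p-values measure the spread between these libraries.

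NF-kappa-B is a family of dimeric transcription factors built from RelA, RelB, c-Rel and the processed products of Nfkb1 (p105, cut to p50) and Nfkb2 (p100, cut to p52). In resting cells I-kappa-B proteins hold the dimers in the cytoplasm, and I-kappa-B kinase marks these inhibitors for destruction, which lets the dimers enter the nucleus and switch on cytokine, chemokine and survival genes. Several inhibitor and subunit genes are themselves known targets of NF-kappa-B, and in the spinal cord the pathway is best known from activated microglia and astrocytes in models of chronic pain.

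The 30-base stretches that follow are shown because they hold the only matches to the kappa-B consensus, the binding sequence of NF-kappa-B dimers, in the promoter windows of the members. The windows run from 250 bases before to 50 bases after the start of each gene in RefSeq (assembly GRCr8), and both strands were searched. Capitals mark the match, and positions are counted from the start of the gene, with -1 for the base just before it.
Nfkb1: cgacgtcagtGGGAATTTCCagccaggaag (chr2:226805440-226805469, minus strand, 4 to 13)
Nfkb2: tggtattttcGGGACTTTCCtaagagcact (chr1:255108344-255108373, plus strand, -20 to -11)
Rel: cgtaggcagcGGGAAATCCCCccccgttcc (chr14:101922001-101922030, minus strand, -82 to -72)
Nfkbia: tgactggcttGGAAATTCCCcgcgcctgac (chr6:78597084-78597113, minus strand, -31 to -22)
Nfkbie: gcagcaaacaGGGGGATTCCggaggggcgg (chr9:22948017-22948046, minus strand, -164 to -155)
Nfkbiz: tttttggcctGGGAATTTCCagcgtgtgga (chr11:58251698-58251727, plus strand, -13 to -4)
Bcl3: tcggcggcagGGGAAGTCCCgcagcccggc (chr1:88613574-88613603, minus strand, -38 to -29)
Relb and Ikbke had no entry in the promoter table used. Of the 8 members with a window, 7 held a match (87.5%), against 1142 of all 27457 promoter windows (4.16%). The matches of Nfkb2, Nfkbia, Nfkbiz and Bcl3 lay within the last 40 bases before the start, that of Nfkb1 just after it, and those of Rel and Nfkbie further upstream. In the Rel window, overlapping matches on both strands covered 11 bases. Nfkb1 and Nfkbiz carried the same 10 letters. Several members are known targets of NF-kappa-B, so their share is not independent of how the list was drawn. These matches describe the letters of the reference sequence, and no binding was measured in the cord.

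**Figure D1:**
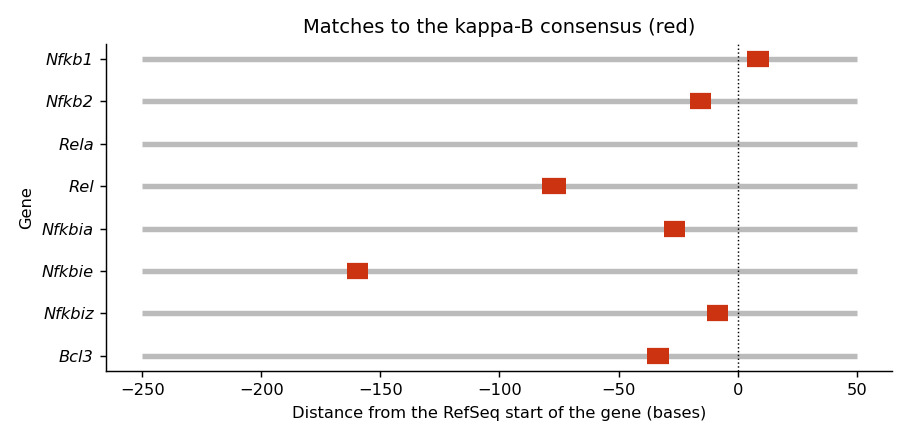
Position of each match to the kappa-B consensus (red) in the promoter windows of 8 members, on an axis of distance in bases from the RefSeq start of the gene. The grey bars are the windows, from 250 bases before to 50 bases after the start, and 7 of 8 hold a match, Rela being the exception.

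In BCP rats 8 of the 10 members rose, none fell, and Rela and Ikbke did not pass the test. Bcl3 (6.16-fold), Nfkbiz (3.74-fold), Nfkb2 (2.77-fold), Relb (2.48-fold) and Rel (2.44-fold) were up-regulated, the term used here for an adjusted p-value of edgeR under 0.05 together with more than a 2-fold change. These 5 of 10 stand beside 6.35% of the 14908 tested genes that were up-regulated and 0.107% that were down-regulated. Nfkb1, Nfkbia and Nfkbie passed the adjusted p-value alone, which makes 8 of 10 members higher beside 15.8% of all tested genes. In every one of the 10 genes each BCP library lay above each sham library, a pattern found in 21.7% of tested genes, while 19.8% had each BCP library below each sham library. The median log2FC of the members was 1.1, from 0.19 to 2.62, and that of all tested genes was -0.0143.

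**Figure D2:**
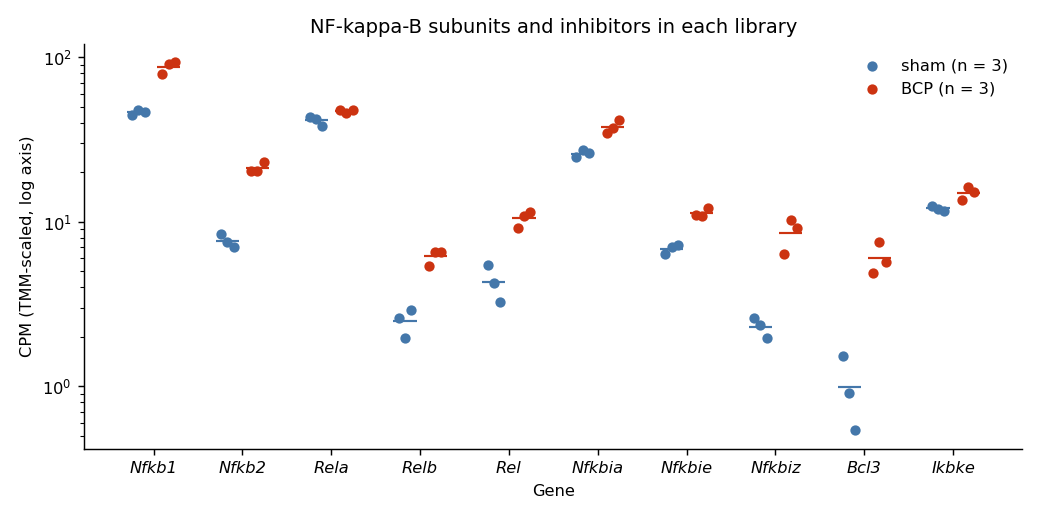
Level of each member in each library, in CPM on a log axis, with sham libraries in blue, BCP libraries in red and a line at the mean of 3 libraries. The 2 groups do not overlap for any of the 10 genes, and the gap is narrowest for Rela (43.4 CPM in the highest sham and 45.9 CPM in the lowest BCP library).

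Markers of other cells moved with these results. By the adjusted p-value 15.8% of all tested genes were higher and 12.1% lower, and 6.35% were up-regulated. With such shares, 1 called gene in a short list is not read as a change of that list. Of 14 tested microglial markers 9 rose, 7 of them as up-regulated genes, and 5 did not pass. The summed level of all microglial markers found was between 421.4 and 526.7 CPM in sham libraries and between 1148 and 1392 CPM in BCP libraries, with Siglech at 0 in all libraries. All 10 tested T cell markers were up-regulated (sums of 7.771 to 8.102 and 62.31 to 74.04 CPM), and Cd3d, Cd5 and Cd8b had no count in any sham library. Cd3d thus passed the filter on low counts through the BCP libraries. Most of the sham sum was Cd4 (4.42 to 5.66 CPM, and 19.7 to 25.6 CPM in BCP libraries). Both tested neutrophil markers of 9 found, Csf3r and S100a8, were up-regulated. Most of the summed level (8.92 to 10.22 and 32.21 to 34.83 CPM) was Csf3r (7.97 to 9.91 and 23.8 to 31.9 CPM). S100a8 had 1, 0 and 0 reads in the sham libraries and passed the filter on low counts through the BCP libraries. Elane was at 0 in sham. Of 5 tested markers of monocytes and macrophages only Plac8 rose (1.08 to 4.80 and 81.3 to 113 CPM). The sums of these markers were 18.53 to 19.93 and 95.96 to 131.2 CPM, with Ccr2 and Ms4a7 at 0 in sham. All 6 oligodendrocyte markers fell (38300 to 43530 and 27410 to 30590 CPM), as did 4 of 9 neuronal markers (5178 to 5448 and 4784 to 5075 CPM). Of 7 astrocyte markers Gfap rose (2163.5 to 2469.3 and 3728.9 to 4439.6 CPM) and Aldh1l1 and Slc1a2 fell. Their sum was 4100 to 4373 and 5902 to 7654 CPM, with Aqp4 at 2415 CPM in BCP library 1 and between 353.6 and 379.0 CPM in all other libraries. Of 5 tested nerve root markers 1 fell, none of the 5 endothelial, 4 meningeal and 1 epithelial tumour markers tested passed, and B and plasma cell markers were too low to test (at most 1.363 CPM in sum). The part of these cells in the rise of the NF-kappa-B genes was not tested, and in bulk RNA a larger number of cells of a type and more RNA per cell cannot be told apart.

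Among the subunits, the precursor genes rose by different amounts. Nfkb1 (ENSRNOG00000023258, chromosome 2, 240773456 to 240866689 in Rnor_6.0) encodes p105, the source of p50. Its level was 44.7, 47.7 and 46.4 CPM in sham libraries 1, 2 and 3, and 79.1, 90.5 and 92.8 CPM in BCP libraries 1, 2 and 3. CPM is the count normalized for library depth, here relative to the counts on genes with TMM factors. The BCP libraries were all well above the sham libraries, with BCP library 1 the lowest of them. The mean went from 46.2 ± 1.51 to 87.5 ± 7.37 CPM (SD, n = 3), a log2FC of 0.92 (SE 0.07, adjusted p = 3.36e-09 in edgeR) that was short of a 2-fold change (1.89-fold).

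Nfkb2 (ENSRNOG00000019311, chromosome 1, 266053002 to 266059256) encodes p100, which is both the precursor of p52 and an inhibitor of RelB. Its level was 8.46, 7.54 and 7.03 CPM in the sham libraries, against 20.3, 20.2 and 23.1 CPM in the BCP libraries. Libraries within a group were close to each other and the groups were far apart. The log2FC was 1.47 (SE 0.12, adjusted p = 1.78e-08), the smallest p-value among the up-regulated members.

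Of the subunits with a transactivation domain, Relb and Rel were up-regulated and Rela was not. Rela (ENSRNOG00000030888, chromosome 1, 220992770 to 221003249), the partner of p50 in the classical dimer, had 43.4, 41.9 and 38.4 CPM in the sham libraries, against 47.4, 45.9 and 47.7 CPM in the BCP libraries. The BCP values were higher without overlap but by little. The means were 41.2 ± 2.57 and 47.0 ± 0.986 CPM (SD, n = 3), and the log2FC of 0.19 (SE 0.07) did not pass (adjusted p = 0.0631). It passed only with library sizes left unscaled by TMM (adjusted p = 0.0251).

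Relb (ENSRNOG00000033235, chromosome 1, 80517411 to 80544825), the main partner of p52 in the non-canonical branch, had only 34, 28 and 43 reads in the sham libraries, against 64, 92 and 86 in the BCP libraries. These counts equal 2.59, 1.96 and 2.91 CPM and 5.41, 6.57 and 6.51 CPM. Every BCP library was above every sham library. The log2FC was 1.31 (SE 0.22, adjusted p = 0.000109).

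Rel (ENSRNOG00000054437, chromosome 14, 108491069 to 108509892) encodes c-Rel, a subunit best known from lymphoid and myeloid cells. Its values were 5.49, 4.26 and 3.24 CPM in the sham libraries, against 9.13, 10.9 and 11.5 CPM in the BCP libraries. The sham libraries spread widely for their level, yet the highest stayed below all BCP libraries. The log2FC was 1.29 (SE 0.19, adjusted p = 2.47e-05). For Relb and Rel a test against a 2-fold change, in place of a test against 0, was not passed (adjusted p = 0.516 and 0.427).

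The cytoplasmic inhibitors among the members, Nfkbia and Nfkbie, both rose by less than 2-fold. Nfkbia (ENSRNOG00000007390, chromosome 6, 76267228 to 76270457) encodes I-kappa-B alpha, which NF-kappa-B induces in its main negative feedback loop. It measured 24.6, 27.2 and 26.2 CPM in the sham libraries, against 34.4, 37.2 and 41.5 CPM in the BCP libraries. The groups did not overlap. The log2FC was 0.54 (SE 0.09, adjusted p = 0.000101, 1.45-fold).

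Nfkbie (ENSRNOG00000019907, chromosome 9, 17828408 to 17835240) encodes I-kappa-B epsilon, a slower inhibitor of RelA and c-Rel dimers. Its levels were 6.41, 6.98 and 7.23 CPM in the sham libraries, against 11.0, 10.9 and 12.1 CPM in the BCP libraries. The BCP libraries lay close together, all above the sham libraries. The log2FC was 0.72 (SE 0.14, adjusted p = 0.000688, 1.64-fold). Nfkbib, a further I-kappa-B gene that is not a member, did not pass in edgeR (log2FC 0.04, SE 0.13, adjusted p = 0.866). Its means were 15.4 ± 2.84 CPM in sham and 15.9 ± 1.46 CPM in BCP libraries (SD, n = 3).

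The nuclear I-kappa-B proteins showed the largest fold changes of the 10 genes. Bcl3 (ENSRNOG00000043416, chromosome 1, 80730499 to 80744831) encodes a nuclear protein that binds p50 and p52 dimers and can turn them into activators. It had 20, 13 and 8 reads in the sham libraries, against 58, 105 and 75 in the BCP libraries, or 1.53, 0.908 and 0.541 CPM against 4.90, 7.50 and 5.68 CPM. The lowest BCP library held more than the highest sham library, and both groups spread widely. The log2FC was 2.62 (SE 0.30, adjusted p = 1.52e-06). Sham library 3 had under 10 reads of Bcl3, so this gene was not tested when every library had to hold at least 10.

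Nfkbiz (ENSRNOG00000031163, chromosome 11, 47243342 to 47271487) encodes I-kappa-B zeta, a nuclear cofactor that is needed for the induction of a subset of inflammatory genes. Its values were 2.59, 2.37 and 1.96 CPM in the sham libraries, against 6.34, 10.3 and 9.16 CPM in the BCP libraries. BCP library 1 was the lowest of its group and still above all sham libraries. The log2FC was 1.9 (SE 0.22, adjusted p = 1.52e-06).

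Ikbke (ENSRNOG00000025100, chromosome 13, 48031410 to 48056394) encodes I-kappa-B kinase epsilon, a relative of TBK1 that also acts in interferon induction. It had 12.5, 11.9 and 11.7 CPM in the sham libraries, against 13.5, 16.2 and 15.1 CPM in the BCP libraries. The lowest BCP library was close to the sham libraries. The log2FC was 0.31 (SE 0.12) with an adjusted p of 0.0587, which became 0.0329 without BCP library 1 and 0.0355 without TMM scaling.

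**Figure D3:**
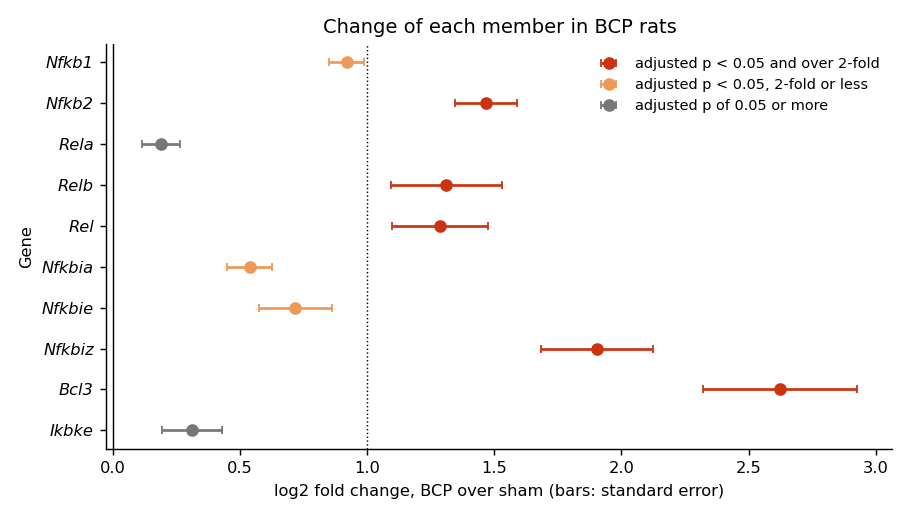
The log2FC of each member, BCP over sham, with bars for the standard error, a solid line at 0 and a dotted line at a 2-fold change. The 5 red genes passed both thresholds, the 3 orange genes passed the adjusted p-value alone, and Rela and Ikbke (grey) passed neither.

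The promoters of Bcl3 and Nfkbiz, the members with the largest fold changes, and of Rela, the only member with a window but no consensus match, are shown over the 250 bases before the start. All are from RefSeq, assembly GRCr8, on the strand of the gene, with matches in capitals.
Bcl3: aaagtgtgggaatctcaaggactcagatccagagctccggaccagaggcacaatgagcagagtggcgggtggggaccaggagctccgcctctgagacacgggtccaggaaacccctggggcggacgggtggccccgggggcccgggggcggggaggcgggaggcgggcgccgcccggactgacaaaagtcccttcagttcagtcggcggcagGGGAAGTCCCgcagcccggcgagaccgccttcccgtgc (chr1:88613556-88613805, minus strand)
Nfkbiz: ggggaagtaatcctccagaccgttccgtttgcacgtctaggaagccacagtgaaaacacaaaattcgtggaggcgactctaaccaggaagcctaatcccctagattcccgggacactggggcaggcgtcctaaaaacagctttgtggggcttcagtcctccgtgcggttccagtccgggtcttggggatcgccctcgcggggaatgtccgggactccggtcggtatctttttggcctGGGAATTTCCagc (chr11:58251471-58251720, plus strand)
Rela: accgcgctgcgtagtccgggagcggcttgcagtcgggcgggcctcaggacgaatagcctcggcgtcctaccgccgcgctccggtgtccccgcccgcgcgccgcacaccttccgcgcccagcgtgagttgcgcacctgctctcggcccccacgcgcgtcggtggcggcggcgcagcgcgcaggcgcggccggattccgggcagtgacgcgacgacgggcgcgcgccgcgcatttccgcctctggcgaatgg (chr1:212354086-212354335, plus strand)
The match of Nfkbiz ended 4 bases and that of Bcl3 29 bases before the start. The absence of the consensus from Rela says only that these letters do not occur in its window.

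Levels of different genes were compared per length, on the FPKM scale of the authors. In sham libraries Rela (16.6 ± 1.00 FPKM) and Nfkbia (16.3 ± 0.889) were highest, with overlapping ranges, followed by Nfkb1 (11.79 ± 0.427), Nfkbie (4.23 ± 0.273) and Ikbke (3.67 ± 0.116). Nfkb2 (2.46 ± 0.226) and Rel (2.41 ± 0.618) overlapped below these, then came Relb (0.968 ± 0.188), and Nfkbiz (0.518 ± 0.0710) and Bcl3 (0.518 ± 0.258) overlapped at the bottom (SD, n = 3 for each). In BCP libraries Nfkbia (24.4 ± 2.48 FPKM) and Nfkb1 (22.9 ± 2.10) overlapped at the top and Rela (19.5 ± 0.402) came next. Nfkbie (7.16 ± 0.470) and Nfkb2 (6.999 ± 0.577) overlapped in the middle, above Rel (6.01 ± 0.748) and Ikbke (4.67 ± 0.443). Relb (2.47 ± 0.280) overlapped both Bcl3 (3.24 ± 0.733) and Nfkbiz (1.99 ± 0.482) at the bottom, whereas Bcl3 was above Nfkbiz without overlap. Rela thus held the first place in sham libraries together with Nfkbia and the third place in BCP libraries, below Nfkb1, without overlap between Rela and Nfkb1 in either group.

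The make-up of the subunit RNA was expressed as the share of each subunit in the summed FPKM of the 5 subunits. The sum was 35.52, 34.71 and 32.52 FPKM in the sham libraries, against 53.99, 58.46 and 61.27 FPKM in the BCP libraries. The share of Rela was 49.06%, 48.83% and 47.65% in the sham libraries, against 36.11%, 32.66% and 32.47% in the BCP libraries, a difference of -14.8 percentage points between the means. Rela had the largest share in each sham library, and Nfkb1 had it in each BCP library. This change of rank holds on the FPKM scale only. In counts, which are not scaled for length, Nfkb1 was already above Rela in the sham libraries (586, 683 and 686 against 569, 600 and 568 reads). The other shares were higher in BCP libraries, by 5.08 points for Nfkb1 (34.47% ± 2.29 to 39.55% ± 1.373), 4.9 points for Nfkb2 (7.184% ± 0.3746 to 12.09% ± 0.5562), 3.37 points for Rel (6.992% ± 1.51 to 10.36% ± 0.6665) and 1.42 points for Relb (2.84% ± 0.642 to 4.262% ± 0.2715, SD, n = 3). For each of the 5 shares the groups did not overlap and the two-sided exact permutation test gave p = 0.1 (adjusted over the 5 shares, 0.1), the smallest p that 3 against 3 allows. With counts in place of FPKM the difference for Rel was 1.85 points. The shares of a library sum to 100%, so they do not vary independently. These are shares of RNA, and the abundance of the proteins was not measured.

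**Figure D4:**
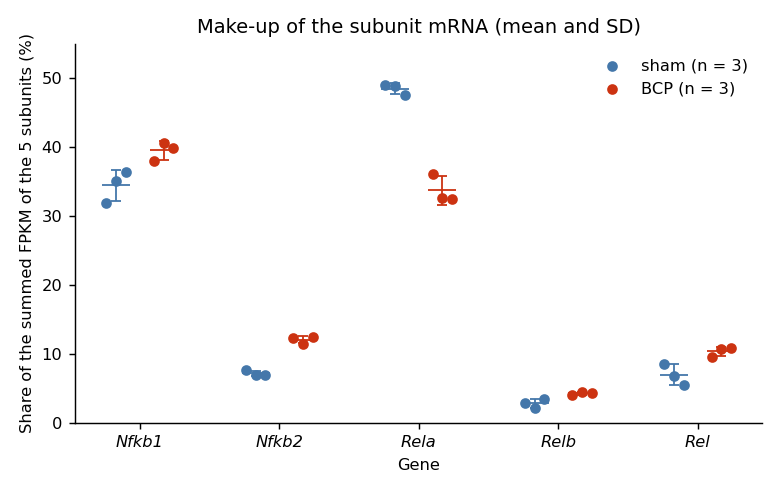
Share of each subunit in the summed FPKM of the 5 subunits, in percent, for each sham (blue) and BCP (red) library, with the mean and SD of 3 libraries. The mean share of Rela is 48.51% in sham and 33.74% in BCP libraries, and the other 4 shares are higher in BCP libraries.

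The ratio of the cytoplasmic inhibitors Nfkbia and Nfkbie to the 5 subunits, a quantity chosen after the values were seen, was 0.544, 0.618 and 0.644 in the sham libraries. It was 0.536, 0.532 and 0.567 in the BCP libraries (0.602 ± 0.0519 and 0.545 ± 0.019, SD, n = 3). The groups overlapped, since BCP library 3 was above sham library 1. Nfkbib was not part of this ratio.

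The other genes of the pathway were grouped by role. Of 93 other pathway genes listed, 84 were tested, and 30 were up-regulated (beside 6.35% of all tested genes) and none down-regulated, with 47 higher and 3 lower by the adjusted p-value alone and a median log2FC of 0.507. By the adjusted p-value alone 15.8% of all tested genes were higher and 12.1% were lower. When every library had to hold at least 10 counts, 70 of the pathway genes were tested and 19 were up-regulated.

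Of 16 kinases, 8 rose (beside 15.8% of all tested genes), none fell, and only Map3k8 was up-regulated, near the 6.35% of all tested genes. The median log2FC of the kinases was 0.217. Map3k8, which encodes the kinase Tpl2 that is held by p105, went from 3.68 ± 0.424 to 12.7 ± 2.22 CPM (log2FC 1.79, SE 0.18, adjusted p = 1.57e-07). Ripk2, the kinase downstream of NOD receptors, went from 24.02 ± 0.723 to 45.8 ± 5.60 CPM (0.93, SE 0.09, adjusted p = 1.50e-07), and Ripk1, the kinase at the TNF receptor, from 26.5 ± 1.28 to 42.5 ± 4.50 CPM (0.68, SE 0.09, adjusted p = 6.95e-06). Without BCP library 1, Ripk2 also passed the 2-fold threshold.

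Of 21 tested adaptors and receptor-proximal genes, 7 rose, 1 fell and 6 were up-regulated, beside 15.8%, 12.1% and 6.35% of all tested genes (median log2FC 0.251). Birc3, a ubiquitin ligase of the TNF receptor complex, went from 2.42 ± 0.966 to 14.7 ± 2.60 CPM, Myd88, the adaptor of Toll-like receptors, from 5.34 ± 0.496 to 16.8 ± 1.80 CPM, and Card9, the adaptor of C-type lectin receptors, from 3.85 ± 0.848 to 11.1 ± 1.15 CPM (adjusted p = 1.73e-07, 2.88e-08 and 1.96e-06). Tradd, the adaptor of TNF receptor 1, rose by a log2FC of 0.80 (SE 0.26, adjusted p = 0.0276), but did not pass in DESeq2 (0.0682) or without sham library 1, sham library 3 or BCP library 2 (0.105, 0.0903 and 0.148). Without sham library 2 it was past 2-fold (1.07). Traf3, which restrains the non-canonical branch that processes p100, fell from 83.6 ± 5.40 to 73.9 ± 2.57 CPM (log2FC -0.18, SE 0.06, adjusted p = 0.0340). Traf3 did not pass in DESeq2 (adjusted p = 0.0825), without TMM scaling (0.114) or without sham library 2, BCP library 1 or BCP library 2 (0.181, 0.125 and 0.0894).

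Of 19 negative regulators, 9 rose, 1 fell and 4 were up-regulated, beside 15.8%, 12.1% and 6.35% of all tested genes (median log2FC 0.244). Tnfaip3, which encodes the ubiquitin-editing enzyme A20, went from 6.65 ± 0.946 to 18.2 ± 1.00 CPM (log2FC 1.46, SE 0.13, adjusted p = 6.43e-08). Zc3h12a, which encodes an endonuclease that degrades cytokine mRNA, and Pdlim2, which encodes a protein that promotes degradation of RelA, rose by a log2FC of 1.34 and 1.24 (adjusted p = 0.000486 and 0.00144). Tnip3, which encodes a partner of A20, had 0, 3 and 1 reads in the sham libraries. It passed the filter on low counts through the BCP libraries and was up-regulated in the test (adjusted p = 0.000313). Its relatives Tnip1 and Tnip2 rose by 0.45 and 0.73 (adjusted p = 0.000104 and 0.00233). Nkiras1, which encodes a Ras-like binder of I-kappa-B, fell from 74.5 ± 0.920 to 63.0 ± 2.33 CPM (-0.24, SE 0.06, adjusted p = 0.00416).

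Of 28 tested target genes, 23 rose, 1 fell and 19 were up-regulated, beside 15.8%, 12.1% and 6.35% of all tested genes. Their median log2FC was 2.33. Target genes with few reads in the sham libraries, Ccl2 among them, passed the filter on low counts through the BCP libraries. Such genes could be called higher but hardly lower, so the filter itself favored a rise in these counts. Ccl2, a chemokine for monocytes, had 2, 4 and 4 reads in the sham libraries, against 102, 112 and 96 in the BCP libraries (log2FC 5.02, SE 0.31, adjusted p = 2.11e-10). Bcl2a1, a survival gene of the Bcl-2 family, went from 1.53 ± 0.675 to 19.9 ± 3.62 CPM, and Cd80, a costimulatory ligand, from 1.32 ± 0.385 to 10.3 ± 1.77 CPM (adjusted p = 2.08e-08 and 7.34e-09). Vcam1, an adhesion molecule of activated endothelium, went from 24.7 ± 0.903 to 51.4 ± 6.75 CPM (log2FC 1.06, SE 0.09, adjusted p = 2.82e-08) and was no longer past 2-fold without BCP library 2 (0.95). Csf1, the growth factor of microglia and macrophages, and Cd83, a marker of activated dendritic cells, rose by 0.55 and 0.30 (adjusted p = 5.10e-06 and 0.00156). Bcl2l1, which encodes the survival protein Bcl-xL, fell from 142 ± 1.10 to 125 ± 7.50 CPM (log2FC -0.19, adjusted p = 0.00954), and without BCP library 2 it did not pass (log2FC -0.15, adjusted p = 0.0840). Cxcl2 had no count in any library and Csf2 none in the sham libraries, and neither was tested. Tnf had 2 rows in the table, 1 of them tested, between which reads could be split.

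The consensus occurred in the windows of 10 of 26 target genes with an entry (38.5%), 3 of 16 negative regulators (18.8%), 2 of 12 kinases (16.7%) and 2 of 16 adaptors (12.5%), beside the 87.5% of the members. Many of these targets are known for such sites, and the same limit holds for the members. Neither share is therefore independent of how its list was drawn.

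**Figure D5:**
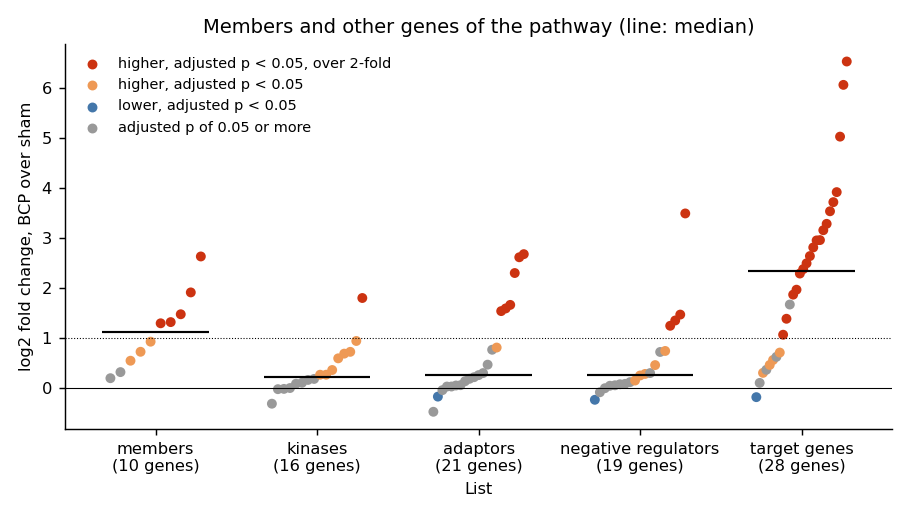
The log2FC of the 10 members and of the tested genes of 4 lists of the pathway, each point a gene and each line the median of its list, with a dotted line at a 2-fold change. The median is 1.1 for members and 2.33 for target genes, and lies between 0.217 and 0.251 for kinases, adaptors and negative regulators.

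The genes whose pattern over the 6 libraries was most like that of Nfkb2 were Cx3cr1, Tnfaip3 and Csf1r. The measure was the root mean square difference of log2(CPM + 0.5) centred on the sham mean, taken over all 14908 tested genes. It was 0.0581 for Cx3cr1, the fractalkine receptor of microglia, 0.0801 for Tnfaip3 and 0.0813 for Csf1r, the receptor of Csf1. Because these genes were picked by this measure, their log2FC values of 1.42, 1.46 and 1.44 had to lie near the 1.47 of Nfkb2. Cx3cr1 and Csf1r are among the microglial markers described above, and whether Nfkb2 shares a cell source with them was not tested.

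Position in the genome was not shared by most members. In Rnor_6.0 the 10 genes lay on 7 chromosomes, with Nfkb2, Rela, Relb and Bcl3 on chromosome 1, where Relb and Bcl3 were 185674 bp apart. The span of each member was overlapped by 0 other genes of the table.

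Of 22 lncRNAs within 10 kb of a member, 12 were tested, 3 were up-regulated and none was down-regulated, beside 1.14% and 0.074% of the 12157 tested lncRNAs. By the adjusted p-value alone 1.57% of tested lncRNAs were higher, and in 11% each BCP library lay above each sham library, in 9.65% below. They lay near 8 members, with none near Nfkbia and Nfkbiz. NONRATT010190.2 (chromosome 14, 108490794 to 108491474, overlapping the span of Rel by 406 bp) had 23, 25 and 24 reads in the sham libraries, against 51, 68 and 68 in the BCP libraries. Its log2FC was 1.51 (SE 0.20, adjusted p = 0.0107), and without sham library 2, BCP library 2 or BCP library 3 the adjusted p was between 0.0522 and 0.0566. The groups were well apart.

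NONRATT003457.2 (chromosome 1, 221006317 to 221007670), 3068 bp from Rela, had 12, 12 and 16 reads in the sham libraries, against 35, 38 and 38 in the BCP libraries (log2FC 1.61, SE 0.25, adjusted p = 0.0187). It lay over Sipa1, a gene that was itself up-regulated (log2FC 1.3, adjusted p = 6.62e-11), and it did not pass when any 1 library was left out (0.0548 to 0.0829). NONRATT029232.2 (chromosome 9, 17817766 to 17821795), 6613 bp from Nfkbie, had 45, 94 and 120 reads in the sham libraries, against 507, 740 and 883 in the BCP libraries. Sham library 1 was the lowest by far, and the log2FC was 3.20 (SE 0.40, adjusted p = 0.0357). This call held without sham library 1 (0.0105) but not without any other library (0.0815 to 0.172). The transcript lay inside Hsp90ab1, whose log2FC was -0.05 (adjusted p = 0.331). Whether counting used strand is not stated, so reads of these lncRNAs and of the genes they overlap cannot be told apart.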

How the data were processed

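RNA-seq counts of 3 BCP and 3 sham libraries were used, each library being assigned to its group and number by its labels. Per the submitters' notes and the study's methods, the authors used Seqtk as a read filter, HISAT2 2.0.4 as aligner to Rnor_6.0, and StringTie 1.3.0 for expression. They deposited unnormalized counts and FPKM values per gene and per lncRNA, and columns of their own comparison that were not used. The counter, its use of strand (the libraries were stranded) and its treatment of multi-mapping reads are not given in the sources used here. The sham libraries held 13366905, 14490611 and 15004290 counts on genes, the BCP libraries 11779485, 13764758 and 12962115. On lncRNAs the counts ran from 1946315 to 2531114. Libraries of a group differed by more than counting noise (chi-square over degrees of freedom, 3.48 to 6.04 in the gene table and 7.85 to 8.61 in the lncRNA table).

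Genes and lncRNAs were fitted separately over whole tables with edgeR 4.0.16 (R 4.3.3), using TMM (factors of 0.979 to 1.02), filterByExpr, a quasi-likelihood fit (robust) with condition as the only term and Benjamini-Hochberg adjustment. The filter left out 5737 genes and 10626 lncRNAs with counts. The thresholds, adjusted p under 0.05 and more than 2-fold, were those of the study. The biological coefficient of variation was 7.72% for genes and 33.4% for lncRNAs. Alternatives were DESeq2 1.42.0, RLE factors, library size only, other filters, no fold threshold, a test against 2-fold, the replicate number as a block and each library left out. On simulated counts with 200 genes changed 4-fold, edgeR called 100% of the changed among 14795 tested genes and no unchanged gene. Among 11705 tested lncRNAs it called 87.5% of the changed together with 8 unchanged ones. The changed features excluded those with the lowest levels, and all features had the same dispersion. These rates therefore do not describe changes nearer 2-fold or genes with few reads.

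The members, gene lists and alternatives were chosen with earlier results of these data known. All members are named, and in each pathway list up to 4 up-regulated genes and 2 other genes per direction with the smallest p-values. Nfkbib is named in addition, beside the cytoplasmic inhibitors. A gene that this rule selects is not reported here. The lncRNAs named are those near a member that passed, and the genes likened to Nfkb2 are the 3 nearest. Of 93 pathway genes 2, Ticam1 and Nos2, did not match a row by name.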

Additional observations from a re-analysis of the deposited data

How the results depend on the processing

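All 5 up-regulated members remained so under the other normalizations, the other filters except at least 10 counts in every library (where Bcl3 was not tested), DESeq2 and each library left out. With no fold threshold 8 members were higher, and in a test against 2-fold 3 (Nfkb2, Nfkbiz and Bcl3). Of the other pathway genes 30 were higher, against 47 higher and 3 lower with no fold threshold and 19 of 70 tested with at least 10 counts in every library. Of the lncRNAs near members 3 were higher, against 0 in the test against 2-fold and 0 to 2 with a library left out. Across 36 single features no direction reversed in 501 values, of which 461 kept their side of the joint threshold (adjusted p and fold), 25 lost it and 15 gained it. By the adjusted p alone, apart from the test against 2-fold, 10 of 426 values of 33 single genes no longer passed (Traf3, Tradd and Bcl2l1) and 3 newly passed (Rela and Ikbke). For genes, deviations of same-numbered libraries correlated at -0.105 to 0.0439, within the -0.119 to 0.139 of differently numbered ones. With 3 libraries per group this cannot decide whether replicate numbers mark a pairing. A fit with the replicate block left 5 members and 1 nearby lncRNA higher. The low counts of Bcl3, Relb and Nfkbiz limit the precision of their fold changes, and intervals and SDs over 3 libraries are themselves uncertain.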
